A study of Mus musculus with 8 samples.

Results

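The response of fat cells to asbestos as a class was measured by setting the 6 arrays of fibre-treated cells against the 2 arrays of saline-treated cells and by asking which genes all 3 fibres moved in the same direction. Those 6 fibre arrays and 2 saline arrays are all 8 arrays of the series. The cells were mature adipocytes differentiated in culture from 3T3-L1, an established clonal mouse preadipocyte line, so every group shares a genetic background and holds no fat tissue around the cells. They had been exposed for 72 hours to chrysotile, crocidolite or amosite at 10 mg/cm2, or to physiological saline, with 2 arrays in each of the 4 groups. The dose is printed in the unit of the labels, which was not checked. Nothing in the labels tells whether the duplicates were grown as separate cultures. The p-values therefore reflect the spread between these arrays alone, and that spread may be technical. A gene counted as shared when the mean of the 3 fibre groups differed from saline past an adjusted p of 0.05 and each fibre's own mean lay on the same side of saline.

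Chrysotile is the curly serpentine form of asbestos, and crocidolite and amosite are straight, iron-rich amphiboles. In macrophages and mesothelial cells, long fibres that cannot be fully engulfed are known to give oxidative stress, inflammasome activity and the release of chemokines. Adipocytes store triglyceride and also secrete chemokines, acute phase proteins and complement, and under inflammatory signals such as those passing through NF-kB they are known to secrete more of these and to express less of the fat-storing programme.

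Total RNA was labelled with Cy3 and read on a mouse expression array, 1 colour per array. Each array had 31292 to 34983 of its 55681 non-control probes (56.2% to 62.8%) called well above background by the scanner, and after the filter 23054 genes were tested, 15139 of them with a symbol. Levels below are log2 intensities relative to the 75th percentile of the array, so a level of 0 is a probe as bright as that percentile, and they rank arrays for 1 probe, not probes against each other. All 8 adipocyte markers checked were above background on all 8 arrays, as were all 6 preadipocyte or fibroblast markers. The summed adipocyte marker level was 11.26 to 11.61 with saline and 11.26 to 11.38 with fibres. Of 9 macrophage markers 5 were above background on all 8 arrays, although Laptm5 was above it on none, and their summed level was 6.05 to 6.2 with saline and 5.92 to 6.21 with fibres.

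No gene met the rule. In the limma fit of the 4 groups 0 of 23054 genes (0%) passed an adjusted p of 0.05 for the pooled fibres against saline, and the smallest adjusted p was 0.0504. At an unadjusted p under 0.05 there were 529 genes higher (2.29% of those tested) and 767 lower (3.33%), and 487 and 747 of these had the same sign for all 3 fibres. With the replicate number as a block 2450 genes rather than 1296 had an unadjusted p under 0.05, yet again 0 were called and the smallest adjusted p was 0.0862. When the 6 fibre arrays were treated as 1 pool, ignoring which fibre was used, 2 genes (0.00868%) passed. The median half-width of the 95% interval of a gene's pooled log2 change was 0.351, and the median change over all genes was -0.01.

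The number of calls depended on the saline duplicate. Without the second saline array 187 genes passed, 160 higher and 27 lower, and without the first 0 passed, with the remaining saline array assumed to vary like the other groups. Without the first chrysotile array 4 genes passed, and without the second 2. The saline arrays were also the least alike pair. They were at least 2-fold apart in 1527 genes, against 897 for chrysotile, 703 for crocidolite and 537 for amosite.

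Both genes called in the pool were lower with every fibre, and both were dim. Each passed the filter on dim probes only through the saline arrays, where it was high, so its call is no support for a shared change; among probes above background on all 8 arrays 0 genes were called, with a smallest adjusted p of 0.725 (limma) and 1190 at an unadjusted p under 0.05. The same limit holds for every gene below that was under background in 1 of the compared groups. It also holds for genes that passed the filter only through the group where they were high, Ereg and Rgn among them. Of the 2 genes called in the pool, 1 is an olfactory-type receptor of the vomeronasal organ, Vmn2r109 (probe at chr17:20677492-20677551, minus strand, build mm9). Its level was -3.81 and -3.93 with saline, -6.20 and -6.97 with chrysotile, -6.74 and -6.95 with crocidolite, and -6.84 and -6.77 with amosite. All 6 fibre arrays lay below both saline arrays, and none of the 6 was well above background, so the difference is given as at least 1.98-fold (limma adjusted p = 0.0699 with 4 groups and 0.00366 with the pool). The other is ENSMUST00000097982, a transcript without a symbol on chromosome 7, at -2.78 and -3.16 with saline and between -6.22 and -7.07 with fibres. It too was under background on all 6 fibre arrays, and the difference was at least 3.69-fold (limma adjusted p = 0.0504 with 4 groups and 0.00239 with the pool).

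Among genes with a symbol, the 10 with the smallest p on the higher side were Tnnt2, Ereg, Ptgs2, Tinagl1, Plaur, Spp1, Plk2, Gpr137b, Plau and Efhb. None passed the threshold, and in all 10 the fibre arrays did not overlap the saline arrays. The pick by p from these same arrays favours a lack of overlap, so it is no separate support. Over all genes 2.02% had all 6 fibre arrays above both saline arrays. The receptor ligand among them was Ereg, epiregulin, which activates the EGF receptor (probe at chr5:91522553-91522612). It measured -4.05 and -4.28 with saline, -2.42 and -2.48 with chrysotile, -2.61 and -3.03 with crocidolite, and -3.19 and -3.56 with amosite. Its order was therefore chrysotile, crocidolite, amosite, saline, and 1 of the 2 saline arrays was above background. The pooled log2 change was 1.28 ± 0.16 (SE, 6 against 2 arrays, limma adjusted p = 0.594). Ereg passed the filter only through the fibre groups, where it was high, and its change ran from 0.28 to 1.53 over 25 alternatives.

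The plasminogen activator and its receptor had the same order. Plaur, the cell-surface receptor that gathers urokinase (probe at chr7:25260569-25260628), was at -3.19 and -2.84 with saline, -1.54 and -1.53 with chrysotile, -2.0 and -2.15 with crocidolite, and -2.34 and -2.80 with amosite. The gap between the lowest amosite array and the higher saline array was narrow, and the pooled log2 change was 0.95 ± 0.16 (SE; limma adjusted p = 0.83). Plau, urokinase itself, was under background on both saline arrays (-5.70 and -4.62) and above it on all 6 fibre arrays, which ran from -4.36 to -2.95. It was at least 2.01-fold higher with fibres (limma adjusted p = 0.83).

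Spp1, osteopontin, a secreted matrix protein that binds integrins, was above background on all 8 arrays. It was at 0.83 and 1.18 with saline, 2.92 and 3.92 with chrysotile, 2.77 and 2.88 with crocidolite, and 1.47 and 1.33 with amosite, a pooled log2 change of 1.54 ± 0.26 (SE; limma adjusted p = 0.83). Tnnt2, the troponin T of heart muscle and a target of serum response factor (probe at chr1:137747976-137748288), had saline levels of -2.94 and -2.93. Its chrysotile levels were -0.27 and -0.0053, its crocidolite levels -2.08 and -1.56, and its amosite levels -2.48 and -2.73. So the pooled 2.66-fold difference (log2 1.41 ± 0.17, SE; limma adjusted p = 0.594) averaged a log2 change of 2.79 with chrysotile and 0.33 with amosite.

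Tinagl1, a secreted matrix protein, was the most even across fibres of the 10: its log2 changes were 0.77 with chrysotile, 0.59 with crocidolite and 0.46 with amosite. Its arrays were at -0.13 and 0.045 with saline and between 0.40 and 0.79 with fibres. The polo-like kinase Plk2, which p53 is known to induce, differed by a pooled log2 change of 0.80 ± 0.14 (SE), and the lysosomal membrane protein Gpr137b by 0.67 ± 0.13. Ptgs2, the inducible cyclooxygenase that makes prostaglandins, was under background with saline and above it on 2 of 6 fibre arrays, so no fold is given. Efhb was likewise under background with saline and above it on 2 fibre arrays, and its direction turned when the background was corrected with normexp (log2 change -0.092).

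**Figure D1:**
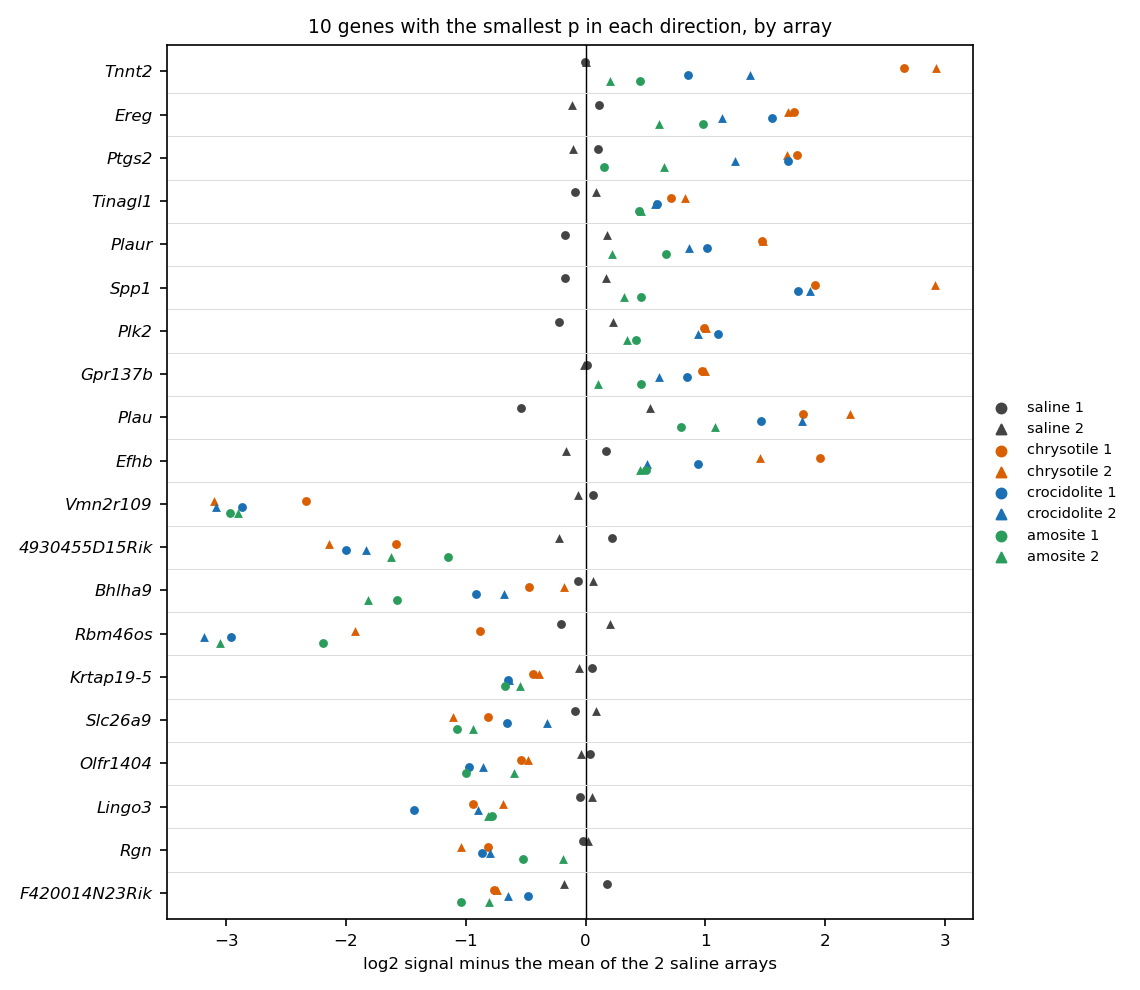
Log2 signal minus the mean of the 2 saline arrays (horizontal axis) for the 10 genes with a symbol and the smallest p in each direction (vertical axis). Each point is 1 array, coloured by group and shaped by replicate number. In every gene the 6 fibre points lie on 1 side of both saline points, which the pick by p favours. Amosite (green) is nearest to saline for Tnnt2, Ereg, Plaur and Spp1.

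Because AP-1, the Fos and Jun dimer that stress kinases activate, is a textbook regulator of several of these genes, promoters reaching from 250 bases before to 50 after each gene's start were searched in RefSeq sequences of build GRCm38.p6. The motifs were AP-1 (TGANTCA), the cAMP response element (TGACGTCA), the NF-kB site (GGGANTTTC) and the NRF2 site (TGACNNNGC), on both strands, and a run of letters can match both AP-1 and NRF2. Of all 32851 promoters 7.81% held the AP-1 letters, 1.79% the cAMP element, 1.11% the NF-kB letters and 12.4% the NRF2 letters. Of the 22 genes with a symbol that were at least 2-fold higher without overlap, 16 matched the table, with 19 promoters. AP-1 letters were in 4 of those promoters (21.1%), of Mmp13, Olr1, Cib4 and Zfhx2, the NRF2 letters in 1 (5.26%), of Pabpc4l, and the cAMP and NF-kB letters in 0. Among the 19 such lower genes 12 matched, and AP-1 letters were in 1 of 15 promoters (6.67%). Of the 10 higher genes with the smallest p 6 matched, with 9 promoters, and AP-1 letters were in 2 (22.2%) and the cAMP element in 1 (11.1%). A match is a run of letters and no measured binding. Olr1, Cib4, Zfhx2 and Pabpc4l passed the filter on dim probes only through fibre groups, where they were high. The shares over all promoters are not limited to the genes tested. The shares of the picked genes are therefore a description, and a role of these factors was not tested. The stretches shown are those of a matrix protease, a scavenger receptor and the urokinase receptor, where the AP-1 letters lie close to the start of a gene higher with fibres, and of Plk2 for the cAMP element. Mmp13, Plaur and Plk2 have their values elsewhere in the text, and Olr1, the receptor for oxidised LDL, was under background on both saline arrays (-4.31 and -4.41), above it on all 6 fibre arrays (-4.17 to -2.02) and at least 2.28-fold higher. Capitals mark the match, each line reads 5′ to 3′ along the gene's strand, and the regions are chr9:7272439-7272513 (plus strand) for Mmp13, chr6:129507179-129507265 (minus) for Olr1, chr7:24462374-24462460 (plus) for Plaur and chr13:110394942-110395029 (plus) for Plk2.
Mmp13: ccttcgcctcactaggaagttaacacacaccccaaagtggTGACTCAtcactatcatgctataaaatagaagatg
Olr1: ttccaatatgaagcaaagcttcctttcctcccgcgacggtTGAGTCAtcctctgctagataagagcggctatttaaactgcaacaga
Plaur: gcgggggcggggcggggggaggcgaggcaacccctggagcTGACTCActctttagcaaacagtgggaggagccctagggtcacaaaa
Plk2: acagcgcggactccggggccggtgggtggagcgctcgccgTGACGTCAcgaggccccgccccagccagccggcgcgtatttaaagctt
The matches begin at -35 for Mmp13, -60 for Olr1, -69 for Plaur and -62 for Plk2, counted from the annotated start.

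Among genes with a symbol that were lower with fibres, the 10 smallest p belonged to Vmn2r109, 4930455D15Rik, Bhlha9, Rbm46os, Krtap19-5, Slc26a9, Olfr1404, Lingo3, Rgn and F420014N23Rik, again all without overlap and none past the threshold. Here too the pick by p favours a lack of overlap, and 4.92% of all genes had all 6 fibre arrays below both saline arrays. Most of the 10 were dim: only Bhlha9 and Krtap19-5 were above background on all 8 arrays. Bhlha9, a bHLH transcription factor, had its largest difference with amosite. It measured -1.21 and -1.09 with saline, -1.62 and -1.33 with chrysotile, -2.06 and -1.83 with crocidolite, and -2.73 and -2.97 with amosite. Its pooled log2 change was -0.94 ± 0.13 (SE; limma adjusted p = 0.83). Krtap19-5, a keratin-associated protein gene, was even across fibres, at 2.61 and 2.50 with saline and between 1.88 and 2.17 with fibres, a pooled log2 change of -0.56 ± 0.091 (SE; limma adjusted p = 0.83). Rgn, regucalcin, a calcium-binding enzyme, was above background on both saline arrays and 1 fibre array and differed by -0.70 ± 0.13 (SE) on the log2 scale. Rgn thus passed the filter only through the saline arrays, and its change ran from -0.88 to -0.28 over 25 alternatives.

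Counted by overlap rather than by p, 465 genes (2.02%) had all 6 fibre arrays above both saline arrays and 1134 (4.92%) had all 6 below. With a mean difference of at least 2-fold as well, 34 genes were higher (0.147%) and 39 lower (0.169%). Those 73 became 309 without the first saline array and 812 without the second. Leaving one out both removes an array to clear and moves the saline mean. Of the 34 higher genes 19 were under background with saline, and of the 39 lower genes 5 with fibres. In all, 9 higher and 5 lower genes with a symbol were above background on all 8 arrays. The names given here were picked with their values already known. The higher ones include Serpina3g, Ackr3, Spp1, Mmp13, Tnnt2, Tmem176a, Col12a1 and S100a4, and the lower ones were Cpz, Otop2, Ccdc30, Gpx6 and Syna. The split of 34 higher to 39 lower (46.6% higher) depended on the scaling: it was 60 to 25 with quantile normalization (70.6%), 46 to 23 with median centring (66.7%), 40 to 1 with normexp (97.6%) and 52 to 387 without the filter on dim probes (11.8%).

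In most of the 9 higher genes the difference was carried by chrysotile and crocidolite. Their median log2 change was 1.83 with chrysotile, 1.87 with crocidolite and 0.40 with amosite. Mmp13, a collagenase, was at -0.66 and -0.55 with saline, 0.62 and 1.83 with chrysotile, 1.6 and 1.32 with crocidolite, and 0.47 and -0.23 with amosite. The lowest amosite array lay closer to saline than to any chrysotile or crocidolite array, and the pooled difference was 2.91-fold (log2 1.54 ± 0.34, SE; limma adjusted p = 0.83). Serpina3g, an intracellular protease inhibitor of the acute phase family, had saline levels of -2.10 and -1.63. Its 2 chrysotile arrays were far apart, at -0.21 and 1.61, while crocidolite gave 0.71 and 0.85 and amosite -1.41 and -0.81 (log2 1.99 ± 0.46, SE; limma adjusted p = 0.83). Serpina3 genes are a family of near-identical copies, so a probe may also read its neighbours.

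Ackr3, a receptor that scavenges CXCL12, differed by a log2 change of 2.10 with chrysotile, 2.50 with crocidolite and 0.40 with amosite. Col12a1, a fibril-associated collagen, differed by 1.15, 1.64 and 0.71. S100a4, a calcium-binding protein typical of fibroblasts, was the most even of the 9. Its arrays read 3.95 and 4.98 with saline, 5.88 and 5.57 with chrysotile, 5.77 and 5.29 with crocidolite, and 5.75 and 5.00 with amosite. The second amosite array lay just above the second saline array, and the first saline array lay lowest of all 8 (log2 1.08 ± 0.33, SE; limma adjusted p = 0.88).

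**Figure D2:**
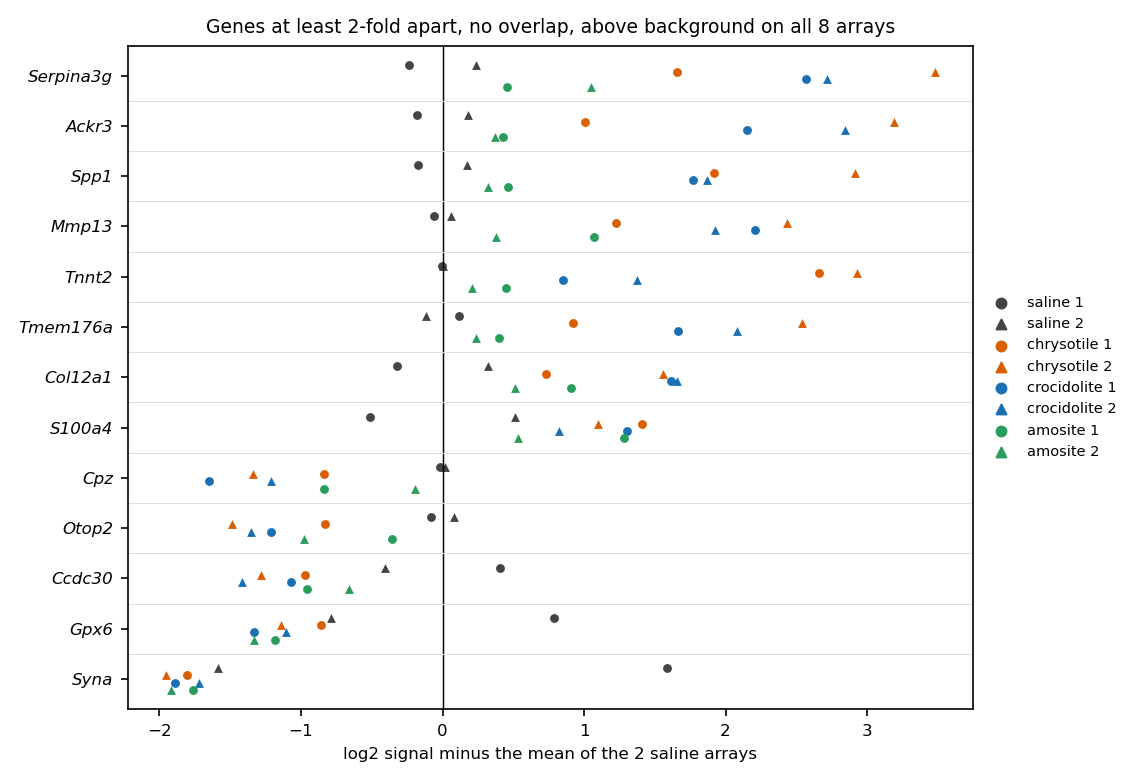
Log2 signal minus the mean of the 2 saline arrays (horizontal axis) for 13 genes with a symbol that were at least 2-fold apart, did not overlap and were above background on all 8 arrays (vertical axis). Points are single arrays; amosite (green) lies nearest to saline in most of the higher genes, whereas for Syna saline 1 lies far from the other 7 arrays.

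The 5 lower genes were not alike. Cpz, a secreted carboxypeptidase that acts on Wnt ligands, was at 0.53 and 0.57 with saline, -0.29 and -0.79 with chrysotile, -1.10 and -0.66 with crocidolite, and -0.29 and 0.35 with amosite. Its second amosite array came near saline, and the pooled log2 change was -1.01 ± 0.23 (SE; limma adjusted p = 0.83). Otop2, a proton channel, differed by -1.16 with chrysotile, -1.28 with crocidolite and -0.67 with amosite. For Syna, a syncytin of retroviral origin, the first saline array read -0.42 and the second -3.60, next to fibre arrays between -3.73 and -3.96. For Gpx6, a glutathione peroxidase, the saline arrays read -2.12 and -3.71 and the fibre arrays -3.78 to -4.25. In both genes the second saline array lay beside the fibre arrays.

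A stricter reading of a shared change asks that each fibre's mean be at least 2-fold from the saline mean. By this count 38 genes were higher (0.165%) and 32 lower (0.139%), 18 of each with a symbol. In 37 of the 38 higher genes the 2 saline arrays were themselves at least 2-fold apart, with the first saline array the farther from the fibres in 35. Tmem114, a claudin-like membrane protein, read -5.17 and -1.18 with saline, and its fibre arrays ran from -1.01 to -0.53. Car14, a membrane carbonic anhydrase, read -4.14 and -0.27 with saline, beside fibre arrays from -0.88 to -0.21. In both genes the second saline array lay near or within the fibre arrays. Only ENSMUST00000133030, on chromosome 1, had no overlap and saline arrays within 2-fold: it was under background with saline (-5.27 and -4.90), above it on all 6 fibre arrays (-4.03 to -3.53) and at least 1.86-fold higher (limma adjusted p = 0.441).

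Among the 32 lower genes the saline arrays were at least 2-fold apart in 18, and 9 had no overlap with saline arrays within 2-fold. Among these 38 higher and 32 lower genes, 0 of those with no overlap and saline arrays within 2-fold were above background on all 8 arrays.

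**Figure D3:**
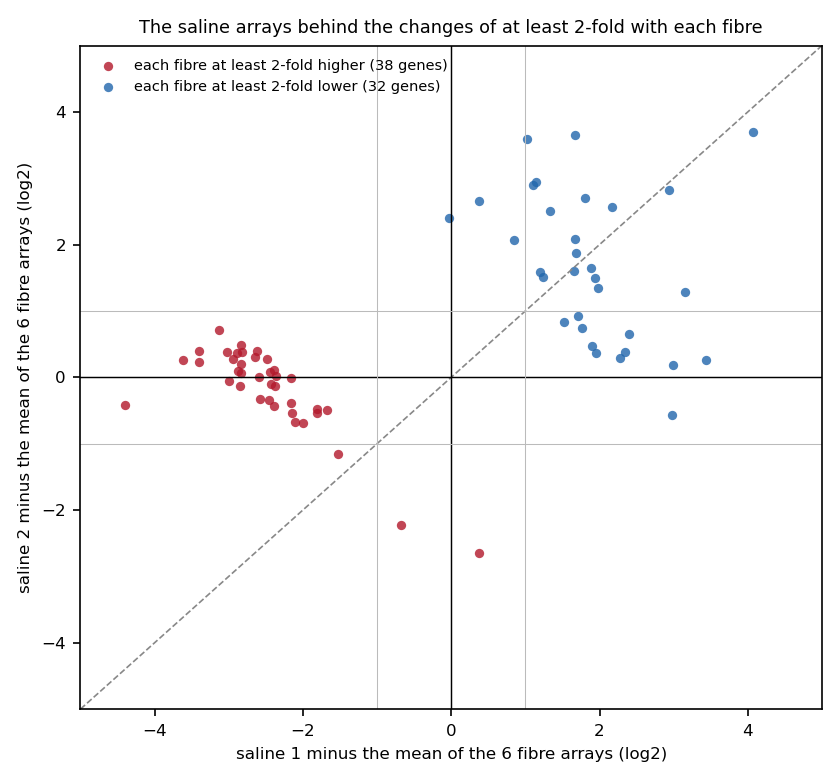
Each point is a gene whose 3 fibre means are all at least 2-fold from the saline mean, with saline 1 (horizontal axis) and saline 2 (vertical axis) each given as log2 difference from the mean of the 6 fibre arrays. Genes on the dashed diagonal have saline arrays that match; most red points (higher with fibres) lie far left near a vertical value of 0, which means that saline 1 alone was low.

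The size of the difference by fibre was then set out for the genes with an unadjusted p under 0.05 and the same sign in all 3. These comparisons share the saline arrays, so the 3 values are given side by side as a description. In the 487 higher genes the median log2 change was 0.64 with chrysotile, 0.60 with crocidolite and 0.31 with amosite, and amosite gave the smallest change in 346. In the 747 lower genes the medians were -0.41, -0.52 and -0.34, with the smallest change from amosite in 396, chrysotile in 261 and crocidolite in 90. A limma F-test of any difference among the 3 fibres called 0 genes (0%), with 956 at an unadjusted p under 0.05 and a smallest adjusted p of 0.305, for Tnnt2 and Oas3. Without the second chrysotile array, which leaves 1 array in that group, the smallest p of that test belonged to Tigit, a receptor on T cells.

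Gene groups were read through 24 lists. For each, the median log2 change stands beside that over all genes (-0.01) and the count of members higher on the pooled mean beside the 46.5% of all genes that were, the 24.3% with all 3 fibre means above saline and the 31.4% with all 3 below. Counts of members with an unadjusted p under 0.05 stand beside the 2.29% of all genes that were higher at that p and the 3.33% lower. No member of any list passed the adjusted threshold. The lists were written with earlier results of these data known, so their counts are a description and no independent support. Some members passed the filter on dim probes only through a fibre group, Ptgs2 among them. Inflammatory chemokines and cytokines had 21 measured members of 30. Of these 16 (76.2%) had a pooled mean above saline, 9 with all 3 fibres above, and 9 had an unadjusted p under 0.05, all higher. The list's median log2 change was 0.48, from 0.74 with chrysotile, 0.81 with crocidolite and -0.036 with amosite. Over 26 alternatives this median ran from 0.12 with no filter on dim probes to 0.74 without the amosite arrays. By array the list's median stood at -0.27 and 0.27 with saline, 0.39 and 1.15 with chrysotile, 0.84 and 0.82 with crocidolite, and 0.14 and 0.045 with amosite. Both amosite arrays thus lay between the saline arrays, and the other 4 fibre arrays above them.

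The 4 members with the smallest p were Ptgs2, which is described above, and 3 chemokines that attract monocytes. Ccl2, the main monocyte chemokine of fat (probe at chr11:81850650-81850709), was at -0.66 and 0.35 with saline, 2.04 and 3.67 with chrysotile, 2.32 and 2.51 with crocidolite, and 0.26 and 0.68 with amosite. The amosite arrays overlapped saline and the other 4 did not. Its pooled difference was 4.20-fold (log2 2.07 ± 0.46, SE; limma adjusted p = 0.83), made of log2 changes of 3.01, 2.57 and 0.62. Its neighbours in the chemokine cluster on chromosome 11 gave similar patterns, Ccl8 with 2.28, 2.22 and 0.34 and Ccl7 with 1.35, 1.29 and 0.065. Cxcl12, the ligand that ACKR3 scavenges, was bright, at 5.27 and 6.46 with saline and 6.39 to 7.38 with fibres, and its amosite arrays also overlapped saline.

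Acute phase and complement genes had 24 measured members of 25, of which 21 (87.5%) had a pooled mean above saline, 15 with all 3 fibres above. The median log2 change was 0.53 (0.66, 0.74 and 0.091 with chrysotile, crocidolite and amosite), and 5 members had an unadjusted p under 0.05. Saa3, the serum amyloid A made by fat cells and macrophages (probe at chr7:53970389-53970448), had the largest value. It read -3.97 and -2.87 with saline, -0.97 and 2.38 with chrysotile, 1.00 and 1.03 with crocidolite, and -2.92 and -2.50 with amosite. The 2 chrysotile arrays spanned a wide range above saline, and the first amosite array overlapped the second saline array. The pooled difference was 8.54-fold (log2 3.09 ± 0.83, SE; limma adjusted p = 0.83). Lcn2, lipocalin, which binds bacterial siderophores, differed by log2 2.41, 2.52 and 0.23, and C4b, complement C4, by 1.98, 2.46 and 0.27.

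**Figure D4:**
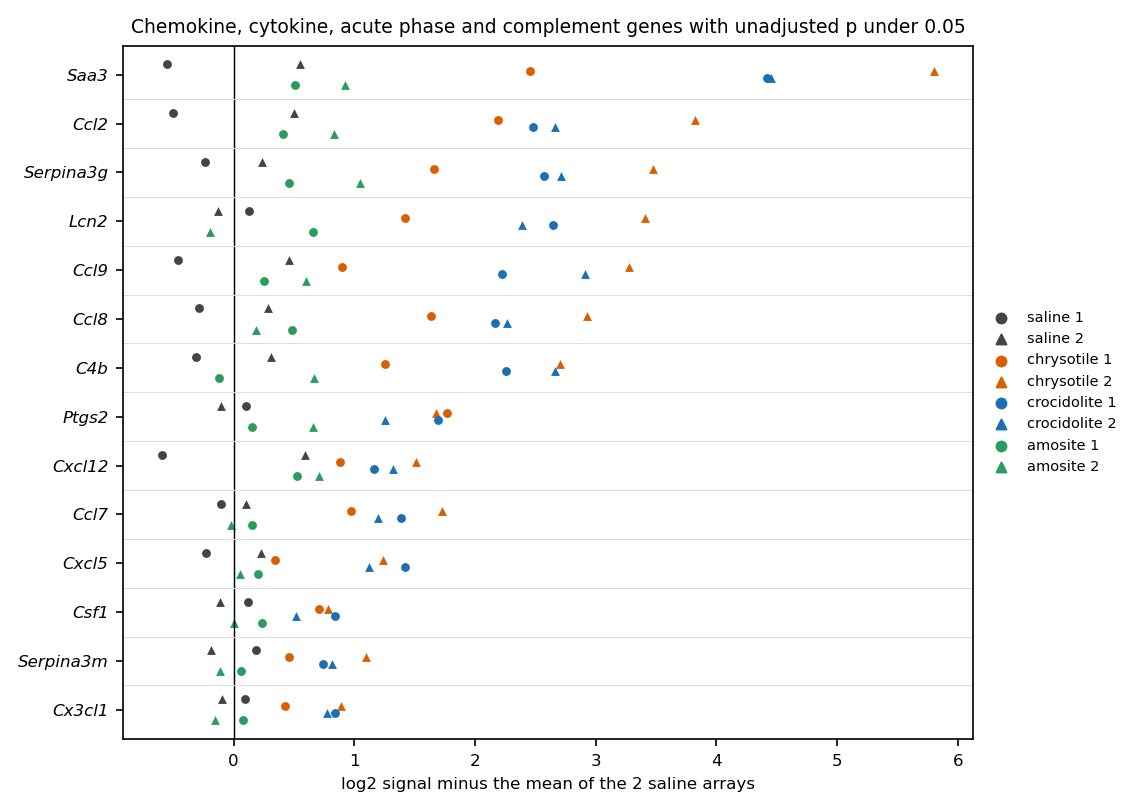
Log2 signal minus the mean of the 2 saline arrays (horizontal axis) for the 14 chemokine, cytokine, acute phase and complement genes with an unadjusted p under 0.05 (vertical axis). Points are single arrays; the chrysotile and crocidolite arrays lie to the right in each gene, and the amosite arrays lie at or near the saline arrays, as for Ccl2 with a log2 change of 0.62 against 3.01 and 2.57.

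NF-kB subunits, feedback and adhesion genes had 17 of 19 measured members above saline on the pooled mean (89.5%), 13 with all 3 fibres, and a median log2 change of 0.20 (0.26, 0.25 and 0.05). Vcam1, an adhesion molecule for leukocytes, was at 3.42 and 3.45 with saline, 4.04 and 4.24 with chrysotile, 4.39 and 4.17 with crocidolite, and 3.67 and 3.53 with amosite. All fibre arrays lay above saline, amosite least (log2 0.57 ± 0.11, SE; limma adjusted p = 0.83). The inhibitor Nfkbie, itself an NF-kB target, differed by 0.97, 0.86 and 0.24, and the receptor Tlr2 by 1.12, 1.16 and 0.0059.

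The plasminogen system and matrix proteases had 17 of 21 measured members above saline (81.0%), 13 with all 3 fibres, and a median log2 change of 0.24 (0.43, 0.47 and 0.055). The list holds Plau, Plaur and Mmp13, described above. The AP-1 and immediate early factors had 19 of 26 above saline (73.1%) and a median of 0.064 (0.28, 0.17 and -0.036). Within it Fosl1, the Fra-1 subunit of AP-1, read -1.69 and -2.01 with saline, -0.19 and 0.78 with chrysotile, 0.29 and -0.24 with crocidolite, and -1.6 and -2.08 with amosite. Runx1, a transcription factor of blood and stroma, had log2 changes of 1.94, 2.17 and 0.10. In both genes amosite lay among or beside the saline arrays.

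Targets of TGF-beta, SRF and YAP were the list in which all 24 measured members had a pooled mean above saline (100%). Of these 12 had all 3 fibres above and 3 an unadjusted p under 0.05. The median log2 change was 0.22 (0.29, 0.40 and 0.062), and it stayed between 0.15 and 0.38 over 26 alternatives. By array the median was 0.022 and -0.022 with saline, 0.31 and 0.35 with chrysotile, 0.56 and 0.32 with crocidolite, and 0.077 and -0.02 with amosite. Ccn1, a matrix signalling protein and YAP target, differed by 0.94, 1.35 and 0.14, and Tpm4, a tropomyosin, by 0.55, 0.64 and 0.15. Growth factors and EGF receptor ligands, to which Ereg belongs, had a median of 0.072, with 15 of 22 above saline (68.2%).

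Stress programmes had medians between 0.034 and 0.18. NRF2, haem and iron genes had 14 of 23 above saline (60.9%) and a median of 0.082, with 0.088, 0.09 and 0.089 for the 3 fibres. Hmox1, haem oxygenase, followed the replicate number more than the group: it read 0.45 and 2.63 with saline, 1.56 and 4.15 with chrysotile, 1.90 and 4.34 with crocidolite, and 0.55 and 2.85 with amosite. The second array of each group lay above the first of every group, and within each replicate number every fibre array lay above the saline array, amosite nearest to it. The pooled log2 change was 1.02 with an SE of 1.11, and of 0.10 with the replicate block (limma adjusted p = 0.957 without the block and 0.444 with it). Integrated stress response and ER chaperone genes had 18 of 24 above saline (75%) and a median of 0.18 (0.19, 0.33 and -0.006). The p53 targets had 12 of 16 (75%) and a median of 0.034, and cell cycle genes 20 of 27 (74.1%) and a median of 0.064. Lysosome and autophagy genes had 20 of 25 (80.0%) and a median of 0.14, which was 0.002 without the first saline array.

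Hypoxia and glycolysis genes had 22 of 26 above saline (84.6%), 16 with all 3 fibres, and a median of 0.17 (0.22, 0.24 and 0.024). Adm, adrenomedullin, a hypoxia-inducible peptide hormone, was at 1.91 and 1.71 with saline and between 1.93 and 2.86 with fibres, all above both saline arrays (log2 0.61 ± 0.14, SE; limma adjusted p = 0.83). Gapdh, the glycolytic dehydrogenase, went the other way in all 3 fibres by -0.19, -0.30 and -0.30, but its direction turned under normexp (0.067). The array's file places the Gapdh probe on chromosome 7, while RefSeq has the gene on chromosome 6, so the probe may read a near-identical copy.

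Interferon response genes spread as far between the saline arrays as across the fibres. Of 30 members 25 had a pooled mean above saline (83.3%), with a median log2 change of 0.15 (0.35, 0.31 and -0.22), but 0 had all 3 fibres above. The list's median was -0.47 on the first saline array and 0.47 on the second, a range that held all fibre arrays except the second of chrysotile (0.54). Without the first saline array the median change was -0.29 and without the second 0.59. Isg15, a ubiquitin-like interferon product, read 3.57 and 5.11 with saline and between 3.99 and 5.35 with fibres.

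Most adipocyte identity genes had a pooled mean below saline, by small amounts. Of 27 measured adipocyte identity genes 6 had a pooled mean above saline (22.2%), and 17 had all 3 fibres below. The median log2 change was -0.14 (-0.14, -0.14 and -0.066), which was -0.31 without the first saline array and 0.12 without the second. By array the list's median was -0.22 and 0.22 with saline and between -0.26 and 0.09 with fibres, so all fibre arrays except the first crocidolite array lay within the saline range. In bulk RNA, fewer adipocytes and less RNA per adipocyte cannot be told apart. Cebpd, an early factor of adipocyte differentiation that inflammatory signals also induce, was higher by 0.71, 0.99 and 0.10. Gpd1, which makes the glycerol backbone of triglyceride, read 8.84 and 9.24 with saline and between 8.52 and 8.94 with fibres.

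Lipogenesis genes had 4 of 21 members above saline (19.0%) and 10 with all 3 fibres below, with a median of -0.12 (-0.16, -0.086 and -0.03). Fasn, fatty acid synthase, did not overlap between the groups: it was at 1.27 and 1.43 with saline, 0.87 and 0.91 with chrysotile, 0.93 and 1.01 with crocidolite, and 1.07 and 1.27 with amosite. The second amosite array was level with the first saline array to within the rounding (log2 -0.34 ± 0.10, SE; limma adjusted p = 0.88). Thrsp, a regulator of lipogenesis, differed by -1.02 with chrysotile, -1.21 with crocidolite and -0.079 with amosite. Fatty acid oxidation and thermogenic genes had 6 of 23 above saline (26.1%) and a median of -0.078.

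Oxidative phosphorylation genes were the one list with 0 of 30 members above saline on the pooled mean (0%). In 21 of the 30 all 3 fibre means were below saline. All 6 fibre arrays lay below both saline arrays in 5 members, beside 4.92% of all genes. In 3 members the difference was lower at an unadjusted p under 0.05, beside 3.33% of all genes. The median log2 change was -0.19 (-0.22, -0.25 and -0.058). It kept its sign over 26 alternatives, but ranged from -0.35 without the first saline array to -0.024 without the second. By array the list's median was -0.17 and 0.17 with saline and -0.096 and -0.33 with chrysotile. It was -0.28 and -0.24 with crocidolite, and -0.091 and -0.016 with amosite. The first chrysotile array and both amosite arrays thus lay between the saline arrays. Cycs, cytochrome c (probe at chr6:50515092-50515151), was at 7.23 and 7.22 with saline, 6.91 and 6.65 with chrysotile, 6.87 and 6.78 with crocidolite, and 6.96 and 6.89 with amosite. All 6 fibre arrays lay below saline and the 3 fibres gave like values of -0.45, -0.40 and -0.31 (pooled -0.39 ± 0.10, SE; limma adjusted p = 0.83). Ndufa9, a complex I subunit, was at 5.86 and 5.85 with saline and between 5.30 and 5.66 with fibres, with changes of -0.37, -0.43 and -0.24.

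**Figure D5:**
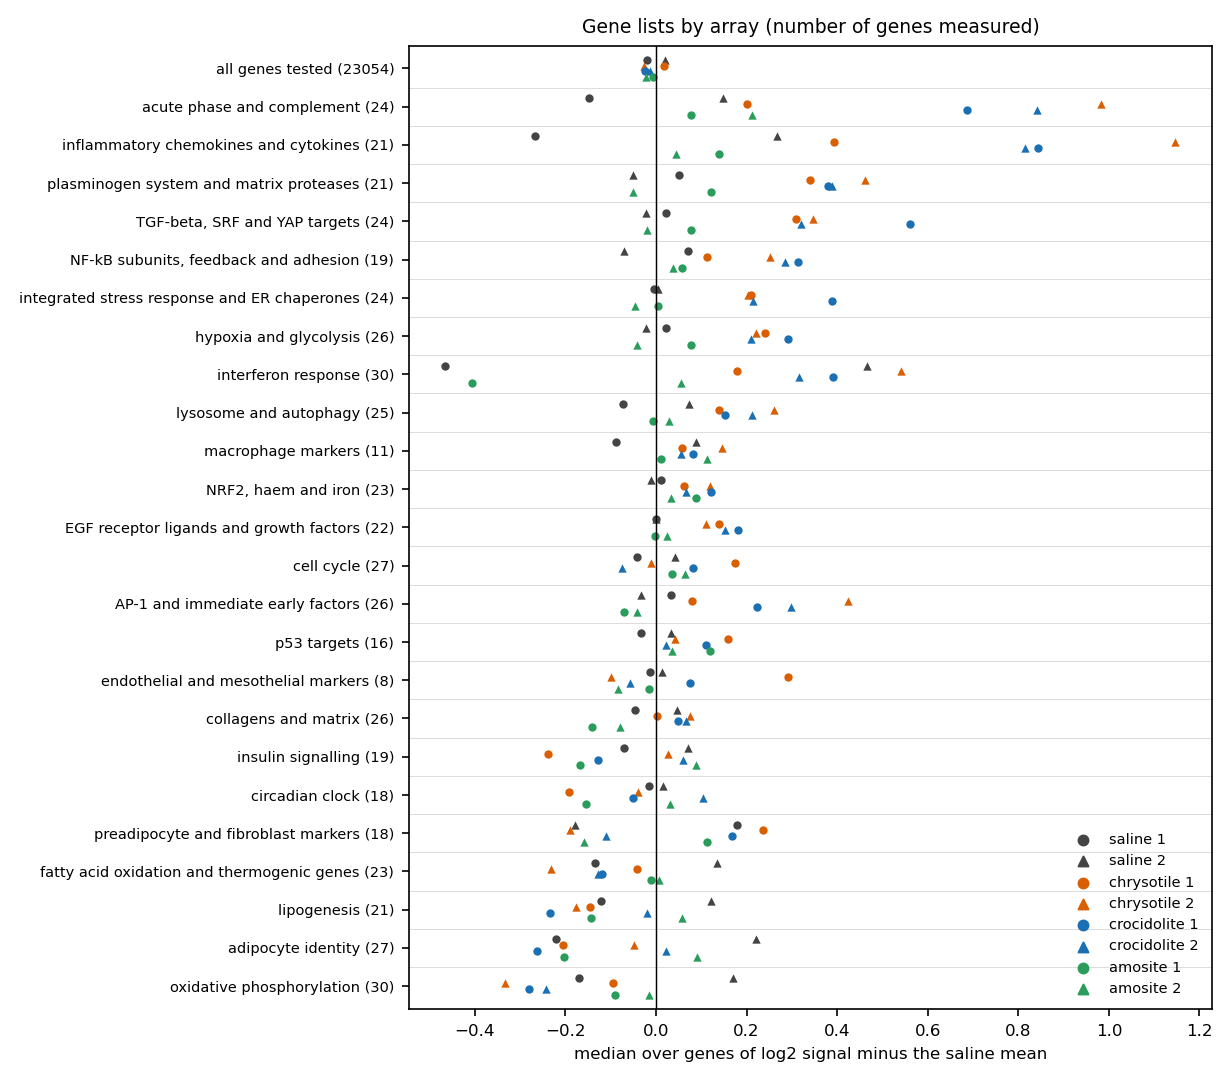
For each gene list (vertical axis, with the number of genes measured) the median over its genes of the log2 signal minus the saline mean (horizontal axis), 1 point per array. The 2 saline points show the duplicate's own spread, widest for interferon response genes at -0.47 and 0.47. The chrysotile and crocidolite points lie outside it for the acute phase, chemokine and TGF-beta lists. The same holds for the NF-kB, plasminogen, EGF receptor ligand, AP-1, NRF2, integrated stress response, hypoxia and lysosome lists.

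Insulin signalling (7 of 19 above saline, 36.8%, median -0.042), clock genes (7 of 18, 38.9%, -0.052) and collagens and matrix (12 of 26, 46.2%, -0.018) lay near all genes, and each median turned sign in at least 1 alternative. Hlf, a clock-controlled factor, read -2.49 and -2.42 with saline, -2.99 and -3.42 with chrysotile, -3.31 and -3.49 with crocidolite, and -2.49 and -2.40 with amosite. Amosite was at the saline level there. Within the matrix list Spp1 and Col12a1 were higher and Postn, periostin, was lower with all 3 fibres (-0.45, -0.61 and -0.21; pooled -0.42 ± 0.14, SE; limma adjusted p = 0.882).

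Markers of other cells were measured beside these groups. Preadipocyte and fibroblast markers had 7 of 18 above saline (38.9%) and a median of -0.064, which was 0.14 without the first saline array and -0.20 without the second. Zfp423, a preadipocyte commitment factor, differed by -0.44, -0.32 and -0.21, while Klf2, a factor that restrains adipogenesis, differed by 1.14, 0.85 and 0.79. The pooled Klf2 change ran from 0.30 to 1.55 over 26 alternatives. Of 20 macrophage markers 11 were measured, 7 of them above saline (63.6%), with a median of 0.13, which was -0.13 without the first saline array. They did not move together. Cd68, a lysosomal protein, differed by 0.60, 0.41 and 0.13, and Lyz1, lysozyme, by -0.65, -0.86 and -0.82. Lyz1 read -3.37 and -3.42 with saline and between -4.51 and -3.58 with fibres, without overlap (limma adjusted p = 0.88). Endothelial and mesothelial markers had 4 of 8 above saline (50%) and a median of 0.006. Wt1, a mesothelial factor, differed by 1.65, 2.15 and 0.45 from saline levels of -4.17 and -3.92. These lay near the lowest levels above background on those arrays (-4.80 and -4.47), and the pooled Wt1 change ran from 0.53 to 1.90 over 26 alternatives. Other markers did not follow Wt1. The pooled change was -0.029 for Msln, -0.20 for Lrrn4, -0.22 for Pecam1 and -0.18 for Krt18. It was 0.23 for Eng and 0.24 for Upk3b, which was above background on 1 array. The part of other cells in the differences above was not tested.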

How the data were processed

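Total RNA from 8 arrays in 4 groups was read by Agilent Feature Extraction 10.7.1.1 per the file headers, and 10.7 per the submitters' processing notes. The deposited values are linear processed intensity per spot, background-subtracted by the scanner software per the file headers, unscaled between arrays. Intensities in the deposited table were identical (largest difference 0). Here log2 intensity was centred on each array's 75th percentile, control and outlier spots (99 to 183 an array) were left out, and spots of a probe were averaged. Of 55681 probes 9 were missing on an array, and 33044 were above background on both arrays of at least 1 group. The brightest passing probe stood for each gene (6559 had more than 1), 26762 probes were named through accessions, and their positions are mm9. Levels of different probes were not compared.

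One limma (3.58.1, R 4.3.3) fit of the 4 groups (4 residual and 2.22 prior degrees of freedom) gave the mean of the 3 fibres minus saline, two-sided, with Benjamini-Hochberg adjustment over all genes. A fold against a pool under background is a bound, set by the lowest probe above background on each array. The script was tested on simulated data. Array number limits the precision. Replicate numbers paired the arrays: deviations correlated at 0.254 to 0.455 in all 6 pairs of groups, although no label says that a number marks a shared batch. The first principal component (32.3% of variance) separated the numbers. All arrays were on 1 slide, with slide row equal to group and slide column equal to replicate number, so neither row and group nor column and replicate can be told apart.

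Named genes were the 10 with a symbol and the smallest p in each direction and up to 4 members per list with the smallest p; Cxcl12, Hmox1, Tigit and the genes counted by overlap or by 2-fold change were added after their values were seen. The members and lists were chosen with earlier results of these data known. Alternatives covered the scaling, background correction, filter, probe rule, prior, replicate block, pooling and left-out arrays. Results on some genes are not reported here. Exon and UTR positions of probes were not analysed here.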

Additional observations from a re-analysis of the deposited data

Results flagged for a closer look

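In 135 named genes the 6 fibre arrays were checked for an array far from the other 5, by the gap to its neighbour as a share of the whole range. Chance alone gives about 1 in 20, and 6 genes had such an array. For Gapdh the first chrysotile array stood above the rest, with a gap share of 0.794. The second amosite array of Per1, a clock gene, gave 0.706. The second crocidolite array gave 0.698 for the olfactory receptor gene Olfr351, and the first crocidolite array 0.663 for Lingo3. The chrysotile arrays stood apart in 2 further genes, the first for Vmn2r109 (0.692) and the second for Olfr435 (0.692). Olfr351 and Vmn2r109 were under background on all 6 fibre arrays, and Olfr435 on both chrysotile arrays. The arrays that stood apart in those genes were thus under background. Oas3, an antiviral oligoadenylate synthase, was higher on both arrays of chrysotile and of crocidolite and lower on both of amosite than either saline array. The limma F-test among the fibres gave it an adjusted p of 0.3048, and both saline arrays were under background. Cpt1a, which brings fatty acids into mitochondria, had both chrysotile and both crocidolite arrays above and both amosite arrays below the saline arrays, with an adjusted p of 1 in the same limma test.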

How the results depend on the processing

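Over 26 alternatives the pooled call count of 0, for both the plain threshold and the same sign in all 3 fibres, became 2 with quantile normalization, with median centring, with the fibres as 1 pool, with that pool and the replicate block, and without the chrysotile arrays. In each of these 5 the genes were ENSMUST00000097982 and Vmn2r109. Leaving out 1 array gave 0 to 187. The 187 came without the second saline array, and Plk2, Plau, Tmem114, Cib4, Gpx6 and Syna were among them. Without the first chrysotile array there were 4, with Sbsn (higher) and Cntnap5a (lower) beside those genes, and without the second the same 2 genes. The replicate block with 4 groups gave 0. Testing all 55672 complete non-control probes with no filter, an alternative chosen after seeing the data, gave 0 calls with 4 groups and 29 with the pool, all 29 lower and under background on all 6 fibre arrays. The count of differences among fibres was 0, and 0 to 1 with 1 array left out. The 73 genes at least 2-fold apart without overlap became 41 with normexp, 439 without the filter, 19 among probes above background on all 8 arrays, 795 over all non-control probes in both designs, 209 without the amosite arrays and 69 to 812 with 1 array left out, of which 309 came without the first and 812 without the second saline array. The cause was not tested. Median centring moved the median of all genes to 0.083.

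Of 139 named genes 8 changed direction somewhere. With normexp the log2 change was -0.092 for Efhb, -0.007 for Oas3, 0.034 for Gbp7, 0.067 for Gapdh, -0.002 for Gm11544 and -0.02 for Pabpc4l. Oas3 was at -0.036 without the chrysotile arrays, and with 1 array left out Isg15 ran from -0.316 (without saline replicate 1) to 1.222 and Ppargc1a from -0.59 to 0.002 (without saline replicate 2). List medians turned sign in some alternative for 9 of 24 lists. With 1 slide and 1 scan date, no block for them was run.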
